A study of Mus musculus with 2 samples.

Results

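The heme and iron recycling genes are 10 genes that take up heme, break it down and import, store or export its iron. They were chosen by symbol, and all 10 (Cd163, Slc48a1, Hmox1, Blvrb, Trf, Tfrc, Slc11a1, Fth1, Ftl1 and Slc40a1) were found among the 24346 gene symbols of both libraries. The data are bulk mRNA sequencing of dorsal skin wounds from 1-day-old C57BL/6J pups, harvested 24 h after a full-thickness 1-cm incision (the design text calls the wounds excisional). The WT group was 1 wound library of wild-type pups, and the group labelled PU.1_KO, here PU.1 KO, was 1 wound library of littermates that lack the transcription factor PU.1. No drug or other agent is named for either group, the number of pups behind each library is not stated in the sources used here, and the knockout is of the whole animal, so that it acts in every PU.1-dependent cell and not only in the wound. Macrophages, mast cells, neutrophils and T cells are known to be missing in such mice, and the comparison asks which wound genes go with those cells.

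Macrophages are the main recyclers of heme iron. They take up haemoglobin bound to haptoglobin and engulf old red cells, heme oxygenase opens the heme ring and frees the iron, and the iron is stored in ferritin or leaves the cell through ferroportin. In a fresh wound, where blood has leaked into the tissue, the same steps deal with free heme, which is toxic, and withhold iron from microbes. Fibroblasts, keratinocytes and other skin cells also hold ferritin, the transferrin receptor and an inducible heme oxygenase.

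All 10 genes had a lower level in the PU.1 KO wound than in the WT wound, and 3 of them, Cd163, Slc11a1 and Hmox1, were at least 2-fold lower. Of the 12958 genes with a mean of at least 1 FPKM, 3.83% were at least 2-fold lower and 50.5% were lower by any amount. FPKM, the number of fragments scaled by transcript length and library size, is a level per length, so that levels of different genes can be set side by side. The other 7 genes had 56.0% to 89.7% of their WT level. The median log2 ratio (PU.1 KO over WT, with values below 0.1 FPKM raised to 0.1) was −0.56 over the 10 genes and 0.00 over the genes with a mean of at least 1 FPKM. At 1.5-fold, Ftl1 joined the lower genes to make 4 (7.39% of the 12958 genes were lower by that much and 5.03% higher). No member was higher in the PU.1 KO wound, where 1.42% of those genes were at least 2-fold higher.

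**Figure D1:**
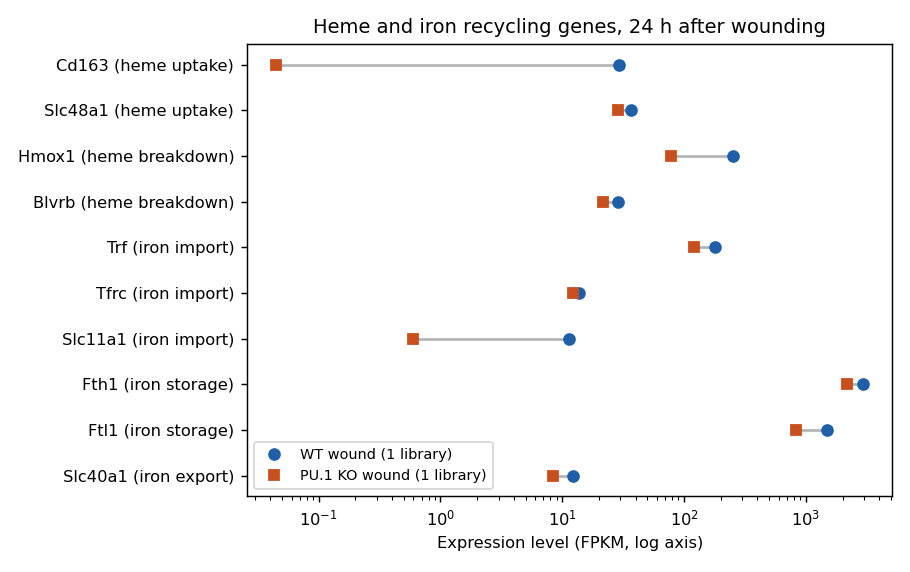
Expression level in FPKM (log axis) of each of the 10 genes in the WT library (circles) and the PU.1 KO library (squares), ordered by role, with no error bars because each genotype is 1 library. Each square lies left of its circle, far to the left for Cd163 (29.0 and 0.0448 FPKM) and Slc11a1 (11.4 and 0.599 FPKM), and close to it for Tfrc (13.8 and 12.3 FPKM).

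With 1 library per genotype there is no spread between animals, no p-value can be given, and every difference below is between 2 libraries. Spi1, the gene of PU.1, had 35.4 FPKM in the WT library against 1.45 in the PU.1 KO library. The depth was estimated, from the steps in which low values move, as 1.38e+07 fragments (WT) and 1.58e+07 fragments (PU.1 KO), and each ratio is given with an exact binomial (Clopper-Pearson) 95% interval on the estimated reads, which covers counting error only. Macrophage markers were at least 2-fold lower for 10 of 10 genes, their summed level fell from 635 to 12.4 FPKM, and the defining marker Adgre1 was listed at 0 in the PU.1 KO library. The summed level of the neutrophil list was 14886 and 5598 FPKM, with 7 of its 9 listed genes at least 2-fold lower. Most of that sum came from S100a8 (6600 and 2129 FPKM), S100a9 (5311 and 1516 FPKM) and Stfa2 (2335 and 1923 FPKM). In the PU.1 KO library the neutrophil markers Ngp, Retnlg, Csf3r and Mmp8 were listed at 0. Skeletal muscle markers were higher (8 of 8 genes, summed level 8486 and 14471 FPKM), and so were those of fibroblasts (10 of 10, 2810 and 3292 FPKM), keratinocytes (9 of 9, 9885 and 11328 FPKM), endothelial cells (8 of 8, 179 and 211 FPKM) and Schwann cells (7 of 7, 129 and 156 FPKM). For the 4 Y-linked genes the PU.1 KO library held 0 FPKM, and Xist had 0 (WT) and 9.48 FPKM (PU.1 KO), so that sex and genotype cannot be told apart. In bulk tissue, fewer cells of a type and less RNA per cell cannot be told apart either. The part of cell composition in the results that follow was not tested.

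Of the heme uptake genes, Cd163 encodes the macrophage receptor for complexes of haemoglobin and haptoglobin. It lies on chromosome 6 of GRCm38 from 124304636 to 124330529. Cd163 had 29.0 FPKM in the WT wound, from about 1681 reads, against 0.0448 in the PU.1 KO wound, from about 3 reads. The WT level was 648 times the PU.1 KO level, with a wide interval from 220 to 3126 because so few reads were left. With the floor of 0.1 FPKM the ratio was 290, and 34 of the 12958 genes had a lower log2 ratio. This near absence goes with that of the macrophage marker list, in which Mrc1, another scavenger receptor, had 53.6 FPKM in WT against 0.417 in PU.1 KO.

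Slc48a1 encodes HRG1, the transporter that moves heme from the lysosome into the cytosol. Its level was 36.8 FPKM in the WT wound against 28.5 in the PU.1 KO wound, a WT over PU.1 KO ratio of 1.29 (interval 1.19 to 1.40). The receptor and the transporter of one route therefore stood far apart in the PU.1 KO library, where Cd163 was close to the limit of detection and Slc48a1 kept 77.6% of its WT level. Exons of Slc48a1 (chromosome 15 from 97784365 to 97792692) overlap those of Hdac7 on the other strand, with 17.3 and 18.4 FPKM, and whether the counting used strand is not given in the sources used here.

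Of the heme breakdown genes, Hmox1 encodes heme oxygenase 1, the inducible enzyme that cleaves heme to biliverdin, carbon monoxide and iron. It lies on chromosome 8 from 75093618 to 75100593. Hmox1 had 251 FPKM in the WT wound against 78.4 in the PU.1 KO wound, a ratio of 3.20 (3.03 to 3.38, from about 4732 and 1700 reads). Among the 890 genes with a mean of at least 100 FPKM, 17 had a lower log2 ratio. Hmox1 thus kept 31.3% of its WT level and, unlike Cd163, stayed abundant, as its PU.1 KO level exceeded that of 91.3% of genes averaging 1 FPKM or more. Hmox2, the constitutive heme oxygenase, had 38.3 FPKM in WT against 32.5 in PU.1 KO (ratio 1.18, 1.05 to 1.33). In FPKM, Hmox1 was 6.54 times Hmox2 in the WT library and 2.41 times in the PU.1 KO library.

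Blvrb encodes biliverdin reductase B, which reduces biliverdin and flavins. Its level was 28.8 FPKM in the WT wound against 21.5 in the PU.1 KO wound (ratio 1.34, 1.10 to 1.63), with the fewest reads of the 7 less changed genes, about 231 and 198. Blvra, which makes bilirubin from the main isomer of biliverdin, was chosen after its values were seen and had 27.2 FPKM in WT and 58.7% of that in PU.1 KO (ratio 1.70, 1.44 to 2.01). The 2 reductases were about equal in the WT wound, and both were lower in the PU.1 KO wound.

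**Figure D2:**
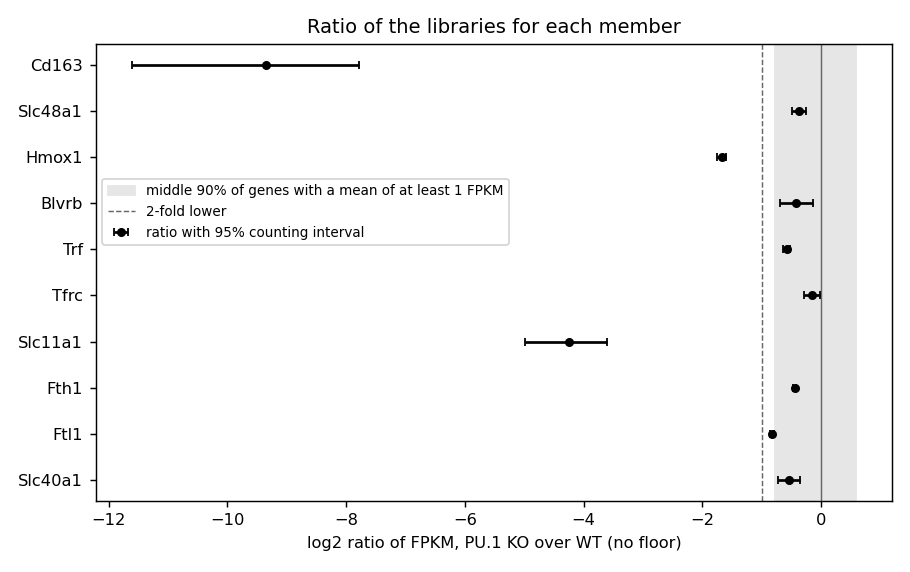
The log2 ratio of the FPKM values (PU.1 KO over WT, no floor) for each member, with bars for the 95% counting interval, a gray band for the middle 90% of genes with a mean of at least 1 FPKM (−0.78 to 0.59) and a dashed line at 2-fold lower. All 10 intervals lie below 0 and those of Cd163, Slc11a1 and Hmox1 lie wholly left of the dashed line, while Ftl1 lies just outside the band and the values of the other 6 within it.

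Of the iron import genes, Trf encodes transferrin, the plasma carrier of iron, which some peripheral cells also make. It lies on chromosome 9 from 103208876 to 103230286. Exons of Trf overlap those of Gm20425 on the same strand, which is not among the symbols of the libraries. Trf had 179 FPKM in the WT wound against 120 in the PU.1 KO wound, a ratio of 1.49 (1.44 to 1.55). The estimate of reads, about 5843 and 4493, makes the counting error small beside the difference. Trf ranked below Hmox1 in the WT library and above it in the PU.1 KO library.

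Tfrc encodes the transferrin receptor, through which dividing cells take up iron. Its level was 13.8 FPKM in WT against 12.3 in PU.1 KO, with a ratio of 1.12 (1.02 to 1.22), the smallest difference of the 10. Of the 12958 genes with a mean of at least 1 FPKM, 28.3% had a lower log2 ratio. Tfrc thus lay well within the range in which most genes fell.

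Slc11a1 encodes NRAMP1, which pumps divalent metals out of the phagosome of macrophages and neutrophils. The C57BL/6 strain is known to carry an allele that impairs the protein. Slc11a1 had 11.4 FPKM in the WT wound against 0.599 in the PU.1 KO wound, a ratio of 19.0 (12.1 to 31.6). About 20 reads were left in the PU.1 KO library against 331 in the WT library, and the PU.1 KO level was 5.28% of WT, where Spi1 itself had 4.12% (a PU.1 KO over WT ratio of 0.0528, 0.0317 to 0.0825, for Slc11a1 and of 0.0412, 0.0292 to 0.0557, for Spi1). With Cd163 it was 1 of the 2 members below 1 FPKM in the PU.1 KO wound, and both are genes of phagocytes.

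The promoter of Slc11a1 is shown because PU.1 binds purine-rich sites around a GGAA core, and Slc11a1 and Cd163 were the members that fell most. RefSeq windows of GRCm38.p6, from 250 bases before to 50 after a gene's start, matched 6 of the 10 members with 9 windows, and were searched on both strands for GAGGAA and for TGACNNNGC, a form of the antioxidant response element through which NRF2 acts on Hmox1 and ferritin genes. The letters GAGGAA were found in the window of Slc11a1, on the coding strand 152 bases before the start, and in no other member's window. They are in capitals in the 30 bases at chr1:74375039-74375068 (plus strand), inside the full RefSeq span of the gene, which begins at 74375014.
Slc11a1: gggtatccaggaGAGGAAcgaaggtcaaaa
Of all 32851 windows, 28.3% held GAGGAA, and 31.3% of the 27025 genes with a window had it in at least 1. Among the 6 members with a window, 1 had it, so that nothing particular to the members is read from it. TGACNNNGC was found in none of the windows of these 6 members and in 12.4% of all windows. Hmox1, Trf, Slc48a1 and Slc40a1 had no window and were not searched, so that nothing is known here of either motif at Hmox1. A match of letters does not show a bound site, and no match says only that these letters are not in the window.

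The iron storage protein ferritin is a hollow shell of heavy chains (Fth1), which oxidise iron, and light chains (Ftl1), which help it to mineralise. Both were among the most abundant mRNAs of the wound. Fth1 (chromosome 19, 9980600 to 9985111) measured 2952 FPKM in the WT library against 2174 in the PU.1 KO library (ratio 1.36, 1.34 to 1.38). Ftl1 (chromosome 7, 45457944 to 45459886) measured 1490 and 834 FPKM (ratio 1.79, 1.74 to 1.83), and its interval does not meet that of Fth1. The light chain was therefore the more reduced of the 2 subunits, and the ratio of Fth1 to Ftl1 in FPKM was 1.98 in the WT wound and 2.61 in the PU.1 KO wound.
Together the ferritin chains made up 0.626% (WT) and 0.438% (PU.1 KO) of all FPKM in their library. Among the 890 genes with a mean of at least 100 FPKM, 34 had a lower log2 ratio than Ftl1, 52 a lower one than Trf and 82 a lower one than Fth1. GENCODE M21 holds 14 other genes and pseudogenes named after the ferritin chains, of which 0 are in the files under those names. The files list 1 separate entry, Fthl17, at 0 in both libraries. The values of Fth1 and Ftl1 are uncertain as far as reads are shared with such copies. Exons of Ftl1 also overlap those of Gm22133 on the same strand and of Gm10252 on the other. Neither is among the symbols of the libraries.

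The iron export gene Slc40a1 encodes ferroportin, the known exporter of iron from cells. It lies on chromosome 1 from 45908070 to 45926532. Slc40a1 had 12.2 FPKM in the WT wound against 8.32 in the PU.1 KO wound, a ratio of 1.46 (1.28 to 1.66) from about 531 and 418 reads. Of the 12958 genes, 8.07% had a lower log2 ratio. The mRNA levels of the exporter and of the transferrin receptor were close, with Tfrc at 13.8 FPKM and Slc40a1 at 12.2 FPKM in the WT wound, and neither was near the loss seen for Cd163.

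**Figure D3:**
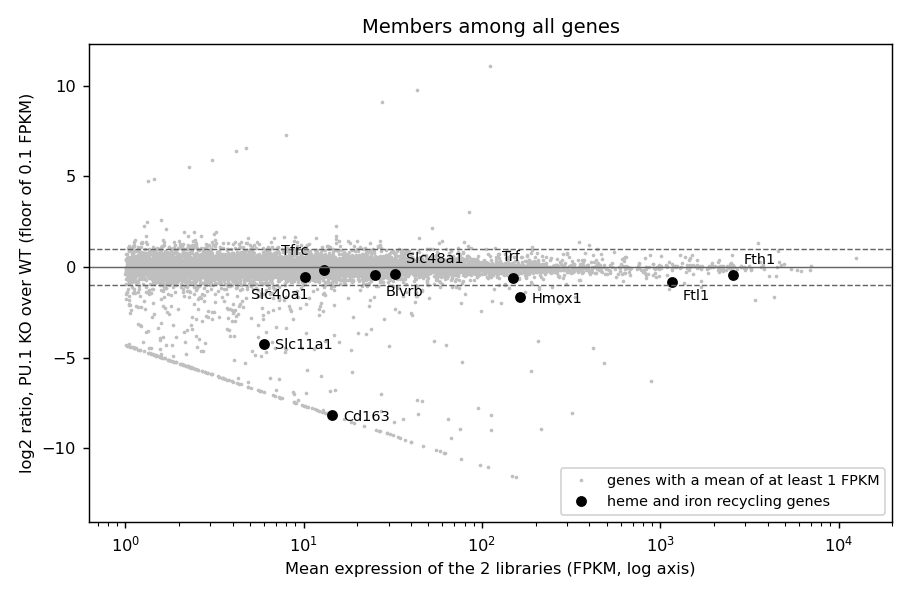
The log2 ratio (PU.1 KO over WT, floor of 0.1 FPKM) against the mean FPKM of the libraries (log axis) for genes with a mean of at least 1 FPKM (gray dots) and the 10 members (black, named), with dashed lines at 2-fold. Cd163 lies on the lower edge that the floor makes, Slc11a1 and Hmox1 lie below the cloud, and the other members lie in its lower part, between −0.84 and −0.16.

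Of these genes, 4 share a sequence feature of iron control. The members were chosen for their roles in heme and iron handling, so that its share among them is descriptive only. The iron-responsive element is a short RNA hairpin with a CAGUGN loop and an unpaired C below its upper stem. In iron-poor cells the iron regulatory proteins bind it, which blocks translation where it lies in the 5′ UTR and protects the mRNA where it lies in the 3′ UTR. GENCODE M21 transcripts linked to RefSeq were searched for C, 5 bases, CAGTG, any base but G, and 5 bases that pair with the first 5 (G with T allowed). The search misses any element that departs from this strict pattern, so that a gene without a match may still hold one. A site in a UTR was found in 102 of 24297 genes (0.420%), among them Fth1, Ftl1, Slc40a1 and Tfrc, and in 1 of the 61 other heme and iron genes (Alas2). RefSeq also has a start of Fth1 just after 9982645, upstream of its site, so that the exon number of that site depends on the transcript. The sites of the 4 members are shown as 30 bases of DNA on the strand of the gene, with the loop in capitals. They lie at chr19:9982732-9982761 (Fth1, plus strand, exon 2 of the transcript in which it was found), chr7:45459778-45459807 (Ftl1, minus strand, exon 1), chr1:45925464-45925493 (Slc40a1, minus strand, exon 1) and, for the first of Tfrc, chr16:32631219-32631248 (plus strand, exon 19).
Fth1: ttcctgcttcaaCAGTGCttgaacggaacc
Ftl1: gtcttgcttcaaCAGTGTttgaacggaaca
Slc40a1: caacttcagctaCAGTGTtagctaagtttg
Tfrc: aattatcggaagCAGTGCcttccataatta
The sites of Fth1, Ftl1 and Slc40a1 lie in the 5′ UTR, and those of Tfrc in the 3′ UTR, where 4 were found. The 3 genes with a site in the 5′ UTR had log2 ratios of −0.44, −0.84 and −0.55, and Tfrc, with sites in the 3′ UTR, had −0.16. Of the members without a site, Trf had −0.58, Blvrb −0.43 and Slc48a1 −0.37, while Hmox1, Slc11a1 and Cd163 had −1.68, −4.24 and −8.18. Nothing particular to the genes with a site is therefore read from their ratios. The ratio of ferritin (Fth1 and Ftl1 summed) to Tfrc in FPKM was 323 in the WT wound and 244 in the PU.1 KO wound. These are mRNA levels, and translation, through which the 5′ elements act, was not measured.

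A list of 61 further genes, grouped in 9 roles, was set beside the members, and all 61 were in the files, 4 of them under an older symbol. Of these, 4 were at least 2-fold lower in the PU.1 KO wound, 1 was at least 2-fold higher and 56 lay between, with a median log2 ratio of −0.05. The 4 lower genes were Ltf, Hpx, Spic and Hamp, of which Spic and Hamp rest on about 6 and 1 reads in the WT library, and 2 were lower among the 54 genes with a mean of at least 1 FPKM. Among all 24346 genes, 4.34% were at least 2-fold lower and 2.32% at least 2-fold higher. The lower median of the 10 members was thus not found in the wider list. Both lists were chosen with earlier results of these data known, so that this contrast is descriptive only.

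**Figure D4:**
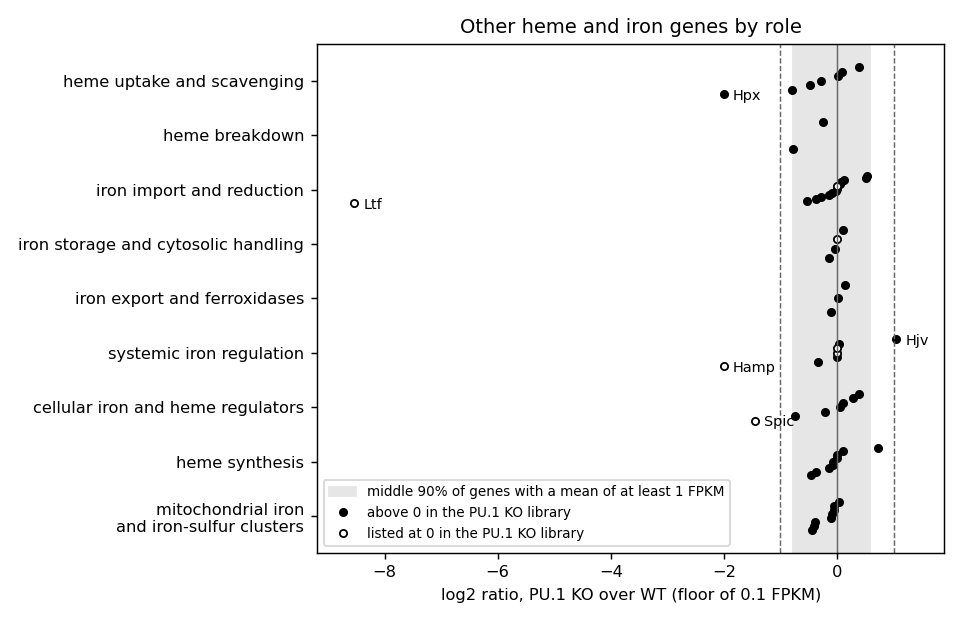
The log2 ratio (PU.1 KO over WT, floor of 0.1 FPKM) of the 61 other genes by role, with open circles for genes listed at 0 in the PU.1 KO library, a gray band for the middle 90% of genes with a mean of at least 1 FPKM and dashed lines at 2-fold. Most points lie in the band, Ltf lies far to the left at −8.54, Hpx, Hamp and Spic lie left of the lower line, and Hjv lies right of the upper one at 1.05.

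The plasma scavengers of haemoglobin and heme were lower. Hp, encoding haptoglobin, which hands haemoglobin to CD163, had 2158 FPKM in the WT wound against 1250 in the PU.1 KO wound (ratio 1.73, 1.70 to 1.76), a WT level between those of Fth1 and Ftl1. Hpx, encoding hemopexin, which binds free heme, fell from 20.1 to 5.04 FPKM (25.1% of WT, a PU.1 KO over WT ratio of 0.251, 0.200 to 0.313). The receptor gene of hemopexin, Lrp1, chosen after its values were seen, had 36.3 and 36.7 FPKM (PU.1 KO over WT 1.01, 0.978 to 1.04). On the haemoglobin route both the carrier and the receptor were lower, while on the heme route the carrier was lower and the receptor was not. Haptoglobin is also made by adipocytes, and 3 of 8 adipocyte markers were at least 2-fold lower, with a summed level of 4260 and 3449 FPKM, whose part in the level of Hp was not tested.

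Of the 14 genes of iron import and reduction, 13 lay between the thresholds. Ltf, encoding lactoferrin, an iron-binding protein of neutrophil granules, had 37.1 FPKM in the WT wound and was listed at 0 in the PU.1 KO wound. Ltf was at least 405-fold lower by the lower end of the exact interval, and 499-fold lower when set against a floor of 3 reads. Lcn2, encoding lipocalin 2, which binds the iron carriers of bacteria, stayed abundant at 1125 and 779 FPKM (ratio 1.44, 1.40 to 1.49). Lactoferrin and lipocalin 2 both withhold iron from microbes, and the mRNA of the first was not detected in the PU.1 KO wound. Of the 9 neutrophil markers, 4 (Ngp, Retnlg, Csf3r and Mmp8) had 0 FPKM there as well, and the other 5 were still measured, among them S100a8 at 6600 and 2129 FPKM and Stfa2 at 2335 and 1923 FPKM. Their part in the values of Ltf and Lcn2 was not tested.

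Hjv, listed as Hfe2 and encoding hemojuvelin, a co-receptor for hepcidin control known from liver and skeletal muscle, was the gene that rose, from 14.3 to 29.8 FPKM (208% of WT, counting interval 1.83 to 2.36 as a ratio). Its log2 ratio of 1.05 lay within the range of the skeletal muscle markers, 0.64 to 1.12. The part of muscle content in the level of Hjv was not tested. The remaining lower genes were chosen after their values were seen. Spic, a transcription factor of red pulp macrophages, had about 6 reads in WT and 0 in PU.1 KO, and Hamp, encoding hepcidin, had about 1 read and 0, which is below the floor of 3 reads and gives no fold.

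The other roles held no gene 2-fold apart, apart from Spic among the 7 regulators. Nfe2l2, encoding NRF2, an activator of Hmox1 and the ferritin genes, had 46.2 FPKM in WT against 60.2 in PU.1 KO (PU.1 KO over WT 1.30, 1.19 to 1.43), and Bach1, which represses Hmox1 and was chosen after its values were seen, had 32.7 and 40.1 FPKM (1.23, 1.17 to 1.29). Both were thus somewhat higher in the wound with the lower level of Hmox1. Among the stores and chaperones, Pcbp1, which delivers iron to ferritin, had 172 and 167 FPKM (ratio 1.03, 0.987 to 1.08), an interval that includes 1, in contrast to both ferritin chains. Cp, the ferroxidase ceruloplasmin that works with ferroportin, had 23.4 and 25.7 FPKM. The 9 genes of heme synthesis had log2 ratios from −0.46 to 0.73, and the most abundant, Urod, had 35.7 and 35.8 FPKM. Their highest ratio was that of Alas2, the erythroid first enzyme, at 11.9 and 19.9 FPKM, beside red cell markers of which 8 of 9 listed were higher (summed level 549 and 924 FPKM, mostly of globin genes, which are near-identical copies). The 8 genes of mitochondrial iron and iron-sulfur clusters lay between −0.45 and 0.03, with Iscu, a scaffold of cluster assembly, the most abundant at 66.0 and 67.4 FPKM.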

How the data were processed

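Bulk RNA of skin wounds was analysed in 1 WT library and 1 PU.1 KO library. Stranded mRNA libraries were sequenced from 1 end over 75 bases, and CASAVA 1.8.2 called the bases. After mapping to mm10 the authors deposited FPKM values from Cuffnorm 2.2.1. The submitters' processing notes also list TopHat2 2.1.1, Bowtie2 2.2.8, SAMtools 0.1.18 and Cuffdiff 2.2.1. Neither the gene annotation nor any filter of reads is given in the sources used here. Cuffnorm scales the libraries to each other, so that a gene's FPKM depends on the other genes of its library.

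A floor of 0.1 FPKM was set under both values before the PU.1 KO value was divided by the WT value, and genes at least 2-fold apart were counted. The depth was estimated from genes with 1 RefSeq-linked GENCODE M21 transcript of over 1000 nt, whose low FPKM values, times the length less 200 nt, move in steps. The most frequent low step was taken as 1 read, which was worth 1.15 times more FPKM in the WT library, and 78.7% (WT) and 79.6% (PU.1 KO) of 1195 and 1162 low values came out whole within 0.1 reads. Reads per gene used the shortest such transcript of at least 300 nt (21696 genes), which gives the wider interval where a gene has several. Intervals and the floor of 3 reads cover counting error only. Gene positions were taken from RefSeq for GRCm38 (mm10).

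The members and lists were chosen with earlier results of these data known. The genes named are all members, Spi1, the other heme and iron genes at least 2-fold apart with a higher value of at least 1 FPKM, the most abundant of each role, and defining markers. Exceptions are marked in the text, or are given as overlapping or control genes. With 2 libraries no genes of like pattern could be named. Of the marker lists, those of macrophages, neutrophils, skeletal muscle, fibroblasts, keratinocytes, endothelium, Schwann cells, adipocytes, red cells, Y-linked genes and X inactivation are given with the results, and mast cell markers were at least 2-fold lower for 7 of 8 genes (summed level 742 and 15.5 FPKM). Alternatives of floor, pseudocount, filter, scaling and threshold were tried. The functions were tested on simulated data. Python 3.11.15, numpy 2.4.6, pandas 2.3.3, scipy 1.17.1 and matplotlib 3.10.9 were used.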

Additional observations from a re-analysis of the deposited data

How the results depend on the processing

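All 10 members were lower in the PU.1 KO library under each of the alternatives of floor, pseudocount, filter and scaling. Their 2-fold count stayed at 3 under those settings and at a 3-fold threshold, and was 4 at 1.5-fold. For 8 of the 10, the log2 ratio moved by at most 0.05. For Fth1 and Ftl1 1 such shift exceeded the counting interval. The log2 ratio of Cd163 was −9.34 with a floor of 0.01 FPKM and −4.84 with a pseudocount of 1 FPKM, and that of Slc11a1 was −2.95 with that pseudocount. Of the 61 other heme and iron genes, 2 were at least 2-fold lower with a floor or a pseudocount of 1 FPKM or with only genes of a mean of at least 1 FPKM, since Hamp and Spic then drop out, 6 with a floor of 0.01 FPKM, 3 at 3-fold and 7 at 1.5-fold. At least 1.5-fold higher were 2 genes, and at least 3-fold higher were 0. No paired analysis was possible because each genotype is 1 library, and for the same reason no library could be left out. Depth limits the ratio of Cd163, which rests on about 3 reads in the PU.1 KO library.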
